A study of Solanum lycopersicum with 9 samples.

Results

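The transcripts described here are those of 68 tomato genes whose level was higher in each library of the peripheral zone (PZ) of the shoot apex than in any library of the leaf primordia (LP) or the central zone (CZ). They were chosen by their values in the table of normalized counts: of 4044 genes that reached a value of at least 6 in at least 1 of the 9 libraries, those were kept whose lowest PZ value lay above the highest LP or CZ value, and genes of the study's lists of chloroplast genes and of developmental regulators were left out. None of those 68 listed genes met the rule, so the exclusion removed nothing. Any 3 of 9 libraries can be chosen in 84 ways, so with libraries that did not differ 1 gene in 84 would meet such a rule, which is 48.1 of 4044 genes. The observed number was 68 (1.68%), and it fell to 20 when the libraries were scaled by TMM factors, as given below. Since the difference of PZ from LP and CZ was what chose these genes, it is described below. Calls made on it are given as description only, and nothing about the group is taken from them.

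The shoot apex of vegetative tomato seedlings was cut by laser microdissection into regions named after the zones they overlap with, and each region was sequenced as 3 libraries by CEL-Seq, a method in which transcripts get a barcode, are amplified linearly and are read from the 3′ end. All libraries came from the line M82 SP+, an untreated tomato line grown for 12 to 14 days with 11 h light and 13 h dark per day, and each pooled 3 cryosections of 10 µm. The zones are places within the same kind of apex and form no time series. They were picked by chlorophyll fluorescence, LP tissue was taken from the abaxial side of young primordia, and which plants each library came from is not given in the sources used here, so that zones may share plants.

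The apex of a shoot is built around a dome of dividing cells. In the CZ, at its summit, slowly dividing stem cells renew the meristem, and in the surrounding PZ cells divide faster and are recruited, at sites of high auxin, into the primordia from which leaves grow. Boundary cells between the meristem and a new primordium and cells that start to differentiate lie close together at this flank, so that a section of the PZ holds several kinds of cells.

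Libraries held 58412 to 66596 reads in PZ, 40286 to 97353 in LP and 51659 to 144665 in CZ. A normalized count is the number of reads of a gene divided by a factor of its library, and 1 read was worth 0.690 to 0.771 in PZ, 0.432 to 1.09 in LP and 0.288 to 0.851 in CZ. The value of 6 that the rule asks for was thus reached by few reads in most libraries. It took more in CZ1 and LP1, the deepest, where 1 read was worth 0.288 and 0.432. No gene that marks the PZ alone is among the genes the study named, so the label of these libraries was compared with markers of the neighbouring zones. STM, the homeodomain factor that maintains the meristem, had 12.3, 1.48 and 4.83 in PZ, 1.3, 0.60 and 1.09 in LP and 9.81, 4.67 and 17.0 in CZ. CUC2, a factor of the boundary between meristem and organs, had 15.4 to 18.5 in PZ, 2.59 to 6.55 in LP and 7.66 to 20.01 in CZ. YABBY1, a factor of the abaxial side of leaves, had 6.94 to 14.8 in PZ, 17.7 to 40.4 in LP and 1.70 to 14.4 in CZ. For STM, CUC2 and YABBY1 the PZ libraries overlapped with those of CZ. They lay above all LP libraries for CUC2 and, narrowly, for STM (1.48 in PZ2, 1.3 in LP1), and below them for YABBY1. YABBY3, another factor of the abaxial side, had 2.07 to 9.25 in PZ and overlapped with both zones. LHCB1.3, a chlorophyll-binding protein, had 4.44 to 6.9 in PZ, above all CZ libraries (at most 3.33), and overlapped with LP. For both genes of RBCS, the small subunit of Rubisco, the PZ libraries overlapped with those of CZ and lay below all LP libraries. The summed level of the 56 chloroplast genes was 508.1 to 789.0 in PZ, 1048.8 to 1309.3 in LP and 275.8 to 639.6 in CZ, and of the markers checked only LHCB1.3 was listed at 0, in CZ3. The part these markers have in the results below was not tested. In captured tissue of this kind, fewer cells of a type and less RNA per cell cannot be told apart.

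**Figure D1:**
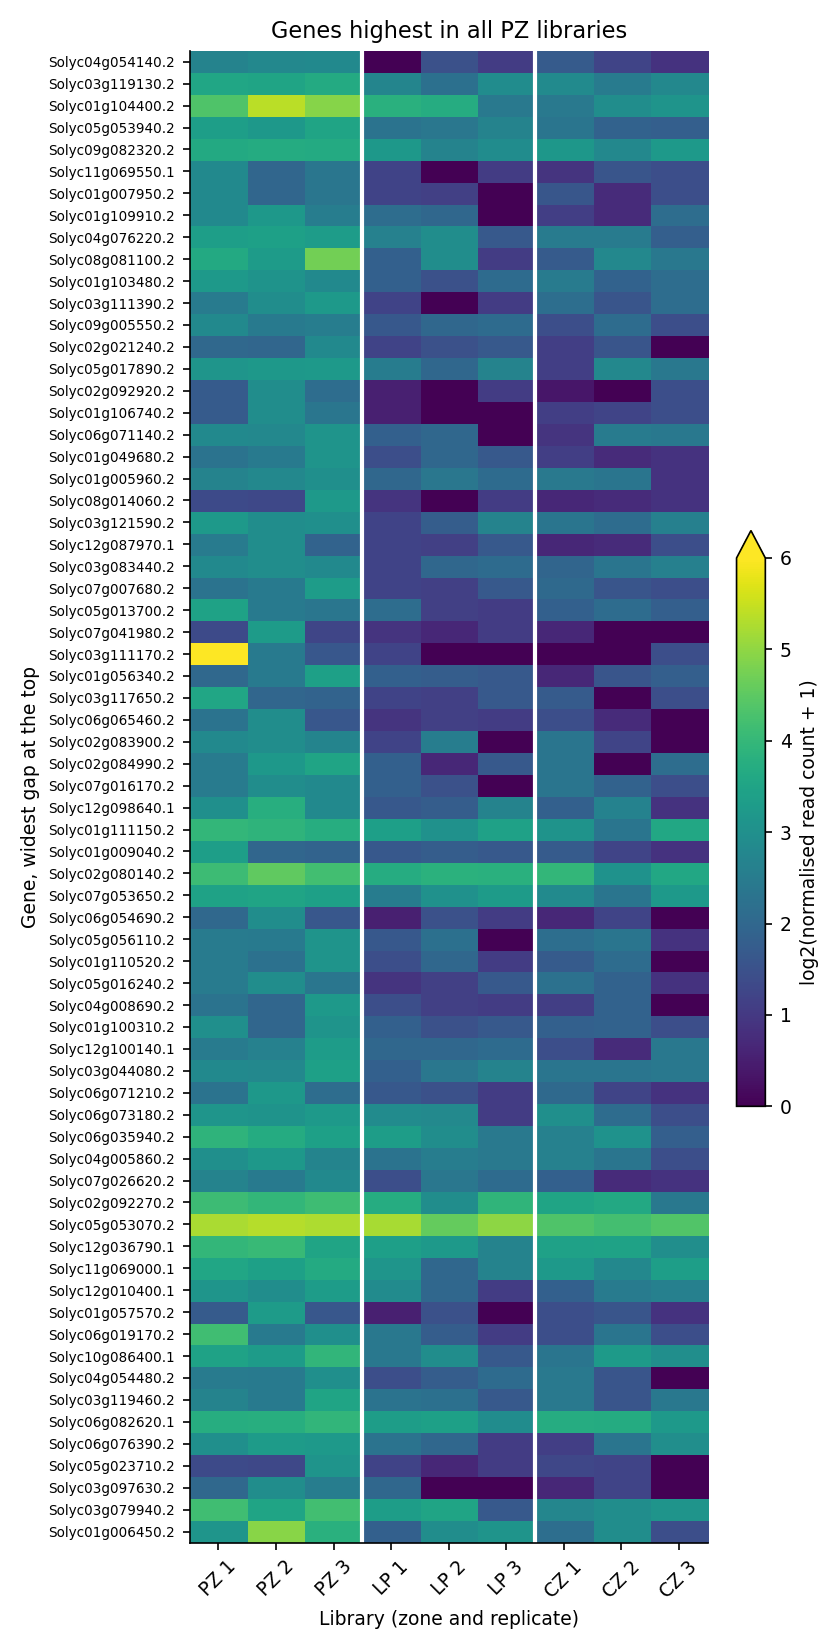
Each row is a gene highest in all PZ libraries, ordered from the widest gap at the top to the narrowest at the bottom, and each column is a library; color gives log2(normalized count + 1). The PZ columns are the brightest in every row by construction, most rows stay dim, and Solyc03g111170.2 in PZ1, at 117, lies beyond the end of the color scale.

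Most of these genes were weakly expressed. Their mean PZ level ran between 3.54 and 41.2 normalized counts with a median of 6.36, and rested on 15 to 161 reads over the PZ libraries (median 26). In LP the means lay between 0.143 and 29.8 (median 2.5), and in CZ between 0.193 and 18.7 (median 2.79). A PZ mean of 10 or more was found for 17 of the 68 genes, and of 20 or more for 3. In 26 genes all PZ libraries reached 6, in 10 genes 2 of them did, and in 32 genes only 1 did. The mean over all libraries had a median of 3.88 for the 68 genes and of 4.14 for all 4044. Reads were found in all 9 libraries for 43 genes. The other 25 were at 0 in at least 1 LP or CZ library, most often in LP3 and CZ3 (10 genes each), which are the shallowest libraries of their zones. A value of 0 in LP3 allows up to 3 reads, or 3.28 normalized counts, by counting error only.

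The summed level of all 68 genes was 639.9, 575.1 and 585.6 normalized counts in PZ, 272.1, 253.5 and 228.2 in LP and 254.5, 242.7 and 224.5 in CZ. The PZ sums stood apart from the others, as the choice of genes made them. Without Solyc03g111170.2, the sum in PZ1 was 522.7.

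**Figure D2:**
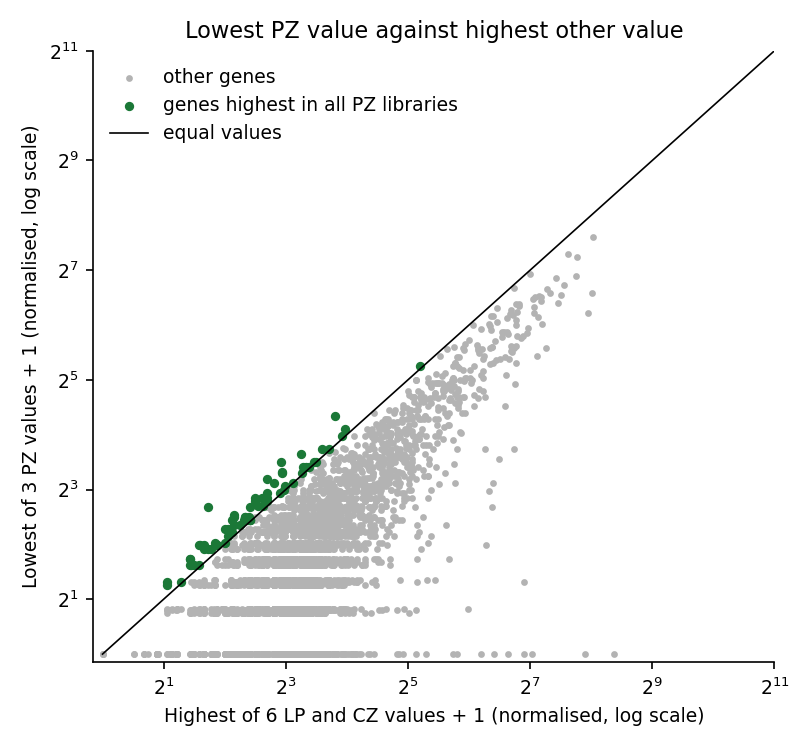
Each point is a gene, with the highest of its 6 LP and CZ values + 1 on the horizontal axis and the lowest of its 3 PZ values + 1 on the vertical axis, both as normalized counts on a log scale. The 68 genes above the line of equal values are those described here, and nearly all lie close to it, as 41 of the 68 gaps were smaller than the worth of 1 read.

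The distance between the lowest PZ value and the highest other value, called the gap here, was narrow for most genes. It ran from 0.04 to 6.32 normalized counts with a median of 0.58. For 41 genes it was less than the worth of 1 read in the lowest PZ library, and for 58 less than that of 2 reads. In only 2 genes, Solyc04g054140.2 and Solyc03g119130.2, was the lowest PZ value at least 1.5 times the highest other value. The highest other value lay in an LP library for 29 genes and in a CZ library for 39, with CZ1, the deepest library, setting it for 19. The mean PZ level was 1.36 to 82.5 times the mean of the 6 other libraries, with a median of 2.64.

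The widest gap on the log2 scale was that of Solyc04g054140.2 (chromosome 4, 51788786 to 51799171; coordinates are those of the genome build SL2.50). Its level was 5.4, 5.92 and 6.21 in PZ, 0, 1.81 and 1.09 in LP and 2.31, 1.33 and 0.85 in CZ. The PZ libraries were nearly equal and each at least 2.34 times the highest of the others, at 24 reads in PZ, 4 in LP and 11 in CZ. Solyc03g119130.2 (chromosome 3, 67824101 to 67829093) had 10.8, 10.4 and 11.7 in PZ, 5.61, 3.62 and 6.55 in LP and 6.35, 4.67 and 5.96 in CZ. Here LP and CZ overlapped fully while PZ stood about as high in each library.

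Solyc01g104400.2 (chromosome 1, 92774674 to 92777517) had the widest gap in normalized counts, 6.32, worth 8.20 reads in PZ1. It was found at 19.3, 40.7 and 29.0 in PZ, at 12.9, 12.1 and 4.37 in LP and at 4.33, 6.67 and 7.66 in CZ. Its PZ mean of 29.6 ± 10.7 was 3.70 times the mean of the other libraries, and LP at 9.80 ± 4.72 overlapped with CZ at 6.22 ± 1.71 (SD, n = 3 each).

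Evenness within the PZ was also a feature of Solyc05g053940.2, with 9.25, 8.14 and 10.3 in PZ, 3.89, 4.22 and 5.46 in LP and 4.04, 2.67 and 2.55 in CZ. Solyc09g082320.2 varied least of the widest-gap genes, at 11.6, 11.8 and 11.7 in PZ, against 8.20, 5.43 and 6.55 in LP and 8.08, 6 and 8.51 in CZ. In both, the libraries of LP and CZ overlapped. For Solyc04g076220.2 the level was 9.25, 9.62 and 8.97 in PZ, 5.18, 6.64 and 2.18 in LP and 4.62, 4.67 and 2.55 in CZ, again with overlapping LP and CZ libraries. Solyc01g109910.2 had 6.17, 8.14 and 4.83 in PZ, 3.45, 3.02 and 0 in LP and 1.15, 0.67 and 3.40 in CZ. Its LP and CZ values spanned the same range, and the 0 stood in the shallow LP3.

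Some wide gaps were found at very low levels. Solyc11g069550.1 was at 6.17, 2.96 and 4.14 in PZ, at 1.3, 0 and 1.09 in LP and at 0.87, 2.00 and 1.70 in CZ. It had 18 reads in PZ, 4 in LP and 8 in CZ. By contrast, Solyc08g081100.2 (chromosome 8, 64203173 to 64205350) reached 11.6, 8.88 and 25.5 in PZ, 2.59, 6.64 and 1.09 in LP and 2.31, 6 and 4.25 in CZ. PZ3 stood out within the zone here, and LP2 and CZ2 were the highest of the other libraries.

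**Figure D3:**
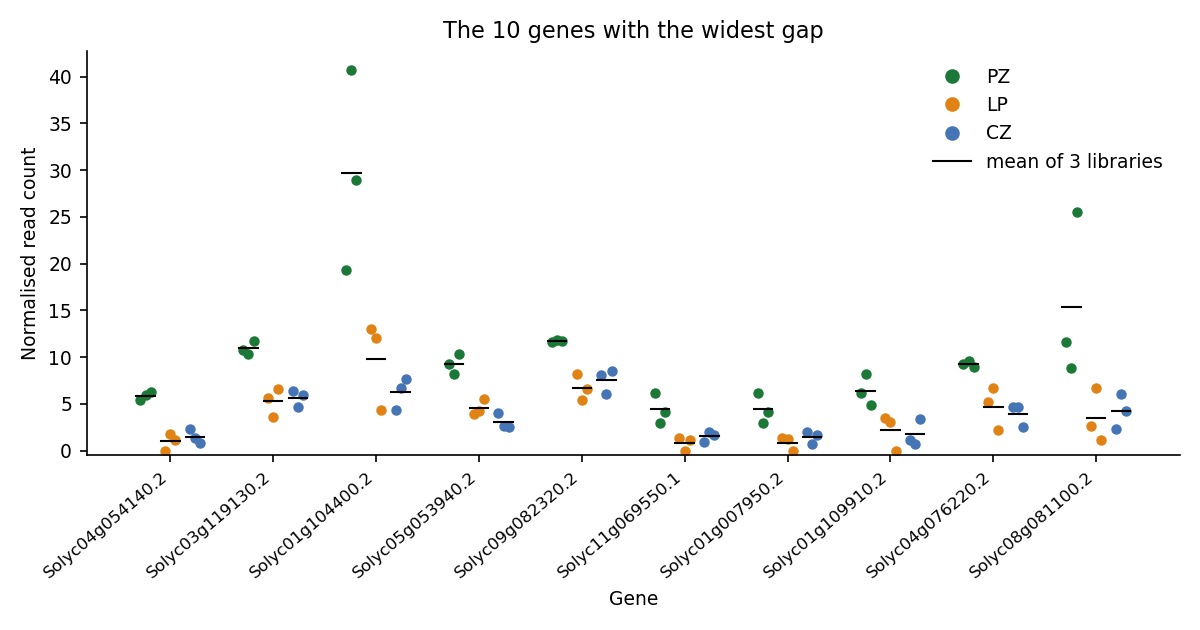
Normalized counts of the 10 genes with the widest gap on the log2 scale, with a point per library and a bar at the mean of the 3 libraries of a zone (PZ, LP and CZ from left to right for each gene). The PZ points lie above all others, tightly for Solyc09g082320.2 (11.6 to 11.8) and loosely for Solyc01g104400.2 (19.3 to 40.7), while LP and CZ points overlap.

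The most abundant genes of the group by PZ mean were Solyc03g111170.2, Solyc05g053070.2, Solyc01g104400.2, Solyc02g080140.2 and Solyc01g006450.2. Solyc03g111170.2 (chromosome 3, 61817681 to 61823869) owed its place to a single library, with 117, 4.44 and 2.07 in PZ, 1.3, 0 and 0 in LP and 0, 0 and 1.70 in CZ. In reads this was 152 in PZ1, 6 in PZ2 and 3 in PZ3, against 3 in LP and 2 in CZ. Without PZ1 it would not have reached the minimum of 6.

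Solyc05g053070.2 (chromosome 5, 63207864 to 63209075) was the most evenly expressed of the abundant genes. Its level was 37.0, 39.2 and 37.2 in PZ, 35.8, 22.9 and 30.6 in LP and 19.3, 17.3 and 19.6 in CZ. The zones followed one another without overlap, PZ highest and CZ lowest, though LP1 came within 1.17 of the lowest PZ library. Solyc02g080140.2 (chromosome 2, 44444470 to 44447584) had 16.2, 22.2 and 17.2 in PZ, 12.1, 13.3 and 13.1 in LP and 14.7, 7.34 and 11.1 in CZ. LP was the tightest zone in this gene, and CZ spread around it.

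The 68 genes differed in how far the PZ libraries agreed. In 27 genes the highest PZ value was at most 1.5 times the lowest, in 17 the highest was at least 2 times the second, and 24 lay between. PZ1 was the highest library for 12 genes, PZ2 for 25 and PZ3 for 31.

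The 27 even genes had PZ means of 5.15 to 37.8 (median 8.03), LP means of 0.967 to 29.8 and CZ means of 1.37 to 18.7. With the abundant and wide-gap genes given above (Solyc03g119130.2, Solyc04g054140.2, Solyc04g076220.2, Solyc05g053940.2, Solyc09g082320.2, Solyc05g053070.2 and Solyc02g080140.2) they comprised Solyc01g005960.2, Solyc01g103480.2, Solyc01g111150.2, Solyc02g083900.2, Solyc02g092270.2, Solyc03g083440.2, Solyc03g121590.2, Solyc04g005860.2, Solyc05g017890.2, Solyc06g035940.2, Solyc06g071140.2, Solyc06g073180.2, Solyc06g076390.2, Solyc06g082620.1, Solyc07g016170.2, Solyc07g026620.2, Solyc07g053650.2, Solyc09g005550.2, Solyc11g069000.1 and Solyc12g010400.1. Of the last group Solyc02g092270.2 was the most abundant, at 16.2, 14.8 and 16.6 in PZ, 12.1, 6.64 and 14.2 in LP and 10.4, 11.3 and 4.25 in CZ. A like order of level was seen in Solyc01g111150.2, at 14.7, 14.1 and 12.4 in PZ, 9.50, 7.24 and 9.83 in LP and 7.50, 4 and 11.1 in CZ. These 2 were named after their values were seen.

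In the 17 genes with 1 leading PZ library, PZ means ran between 3.54 and 41.2 (median 5.15), LP means between 0.433 and 5.63 and CZ means between 0.193 and 4.19. The leading library was PZ1 in 5 genes, PZ2 in 5 and PZ3 in 7. They were Solyc01g006450.2, Solyc01g009040.2, Solyc01g056340.2, Solyc01g057570.2, Solyc02g021240.2, Solyc03g111170.2, Solyc03g117650.2, Solyc04g008690.2, Solyc05g013700.2, Solyc05g023710.2, Solyc06g019170.2, Solyc06g054690.2, Solyc06g071210.2, Solyc07g007680.2, Solyc07g041980.2, Solyc08g014060.2 and Solyc08g081100.2. In 7 of them the leading library was at least 3 times the next, as for Solyc08g014060.2, chosen after its values were seen, with 1.54, 1.48 and 8.28 in PZ, 0.86, 0 and 1.09 in LP and 0.58, 0.67 and 0.85 in CZ. The 2 lower PZ libraries of this gene hold 2 reads each.

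The remaining 24 genes had PZ means of 4.14 to 29.6 (median 5.69), LP means of 0.143 to 9.80 and CZ means of 0.637 to 8.87. These were Solyc01g007950.2, Solyc01g049680.2, Solyc01g100310.2, Solyc01g104400.2, Solyc01g106740.2, Solyc01g109910.2, Solyc01g110520.2, Solyc02g084990.2, Solyc02g092920.2, Solyc03g044080.2, Solyc03g079940.2, Solyc03g097630.2, Solyc03g111390.2, Solyc03g119460.2, Solyc04g054480.2, Solyc05g016240.2, Solyc05g056110.2, Solyc06g065460.2, Solyc10g086400.1, Solyc11g069550.1, Solyc12g036790.1, Solyc12g087970.1, Solyc12g098640.1 and Solyc12g100140.1. With Solyc01g104400.2 set aside, the highest PZ mean among them was the 14.9 ± 3.89 of Solyc03g079940.2 (SD, n = 3).

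A description was at hand for 4 of the 68 genes. The part of the study's annotation that could be read covers 109 of the 4044 genes, all on chromosome 1 or on no chromosome, and the 4 (3.67%) are among the 14 genes of the group on chromosome 1. The other 64 are given by ID alone.

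Solyc01g006450.2 (chromosome 1, 1058119 to 1063505) is described as an enoyl reductase with the domain of an enoyl-[acyl-carrier-protein] reductase (NADH). In plants such an enzyme completes each round of chain growth in the fatty acid synthesis of plastids. It had 7.71, 29.6 and 13.1 in PZ, 2.59, 6.64 and 7.65 in LP and 3.46, 6.67 and 1.70 in CZ. PZ2 stood high, and PZ1 lay above LP3 by only 0.06. Other genes of this synthesis with a description were looked up after the values had been seen, and none met the rule.

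Solyc01g008330.2, a biotin carboxylase of acetyl-CoA carboxylase, which makes the precursor malonyl-CoA, had 6.17, 22.2 and 13.1 in PZ, 3.89, 3.02 and 7.65 in LP and 9.23, 4.67 and 12.8 in CZ. PZ2 was its highest library too, but PZ1 lay below CZ1 and CZ3. Solyc01g006980.2, a transacylase that loads malonyl groups onto the acyl carrier protein, was low throughout, with 2.31, 2.22 and 0.69 in PZ, 4.32, 3.02 and 1.09 in LP and 4.62, 6 and 0.85 in CZ. ACP4, the acyl carrier protein on the study's list of chloroplast genes, was found at 10.0, 8.88 and 13.1 in PZ, at 28.9, 27.2 and 19.7 in LP and at 5.77, 13.3 and 2.55 in CZ. Its LP libraries were above all others, so these genes followed different orders of the zones.

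Solyc01g009040.2 (chromosome 1, 3041736 to 3044940) is described as cyclin B1, a protein that binds a cyclin-dependent kinase and is needed for entry into mitosis. Its level was 9.25, 2.96 and 2.76 in PZ, 2.16, 2.41 and 2.18 in LP and 2.31, 1.33 and 0.85 in CZ. PZ1 alone stood high, and PZ3 exceeded the highest other library by 0.35, which is less than a read. A cyclin B-like gene, Solyc01g007870.2, did not reach the minimum of 6, with at most 1.38 in PZ, 2.18 in LP and 2.55 in CZ. For Solyc01g020440.2, described as subunit 5 of replication factor C, which loads the sliding clamp onto DNA during replication, the level was 2.31, 2.22 and 4.14 in PZ, 3.02, 4.22 and 1.09 in LP and 3.17, 8 and 1.70 in CZ. The zones overlapped in both of these genes, which were likewise looked up after the values had been seen.

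Solyc01g007950.2 (chromosome 1, 2134514 to 2143061) is described as peroxidase 1. Many plant peroxidases are heme enzymes secreted to the cell wall that oxidize phenolic compounds, but the description gives no location or substrate for this one. Solyc01g007950.2 had 6.17, 2.96 and 4.14 in PZ, 1.3, 1.21 and 0 in LP and 2.02, 0.67 and 1.70 in CZ, and the PZ total was 18 reads. Solyc01g005960.2 (chromosome 1, 625583 to 633196), described as an ATP-dependent RNA helicase, a class of proteins that unwind or remodel RNA, was at 5.4, 5.92 and 6.90 in PZ, at 3.02, 4.22 and 3.28 in LP and at 4.33, 4 and 0.85 in CZ. The helicase was even in PZ and LP, and CZ3 stood low.

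The limit of the rule cut through closely spaced values. Just inside it lay Solyc01g006450.2, above, with Solyc03g079940.2 and Solyc03g097630.2. Solyc03g079940.2 had 17.0, 10.4 and 17.2 in PZ, 9.07, 10.3 and 2.18 in LP and 5.77, 6.67 and 7.66 in CZ, and Solyc03g097630.2 had 3.08, 6.66 and 4.83 in PZ, 3.02, 0 and 0 in LP and 0.58, 1.33 and 0 in CZ. In each, a single LP library came within 0.1 of the lowest PZ library.

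Just outside lay Solyc03g033340.2, with 9.25, 6.66 and 3.45 in PZ, 3.45, 1.81 and 1.09 in LP and 3.17, 0.67 and 0 in CZ, a tie of PZ3 with LP1. Solyc08g014340.2 had 7.71, 9.62 and 8.28 in PZ, 7.77, 4.83 and 5.46 in LP and 4.90, 4 and 7.66 in CZ, and Solyc10g079500.1 had 4.63, 8.14 and 8.97 in PZ, 2.16, 3.02 and 4.37 in LP and 2.60, 4.67 and 0.85 in CZ. These too had their highest mean in PZ. A further 4 genes tied at 0, with reads in some PZ libraries only. Within 0.1 of equality on the log2 scale there were 22 genes inside the limit and 28 outside it with reads in every PZ library.

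LP and CZ were not set against each other by the rule, apart from both being held below the lowest PZ value, which bounds their difference. Only 21 of the 68 genes had an LP or CZ value of 6 or more, and the others passed the minimum through PZ alone. Median reads of the group were 12 in LP and 18 in CZ. A lack of calls between LP and CZ was thus largely set by the choice of genes, and nothing is concluded from it. The comparison places the other zones relative to each other. limma, fitted to log2(normalized count + 1) of all 4044 genes with a call at a difference of 1.5-fold or more and an adjusted p up to 0.05, called 58 genes between LP and CZ (1.43%) and none of the 68. At an unadjusted p of at most 0.05 there were also 0 of the 68, beside 9.52% of all genes, and neither edgeR nor DESeq2 on the recovered reads called any, though DESeq2 gave no adjusted p for 41 of them. The smallest adjusted p was 0.577. The median log2 difference of LP minus CZ was 0.03 for the 68 genes and 0.02 for all genes.

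**Figure D4:**
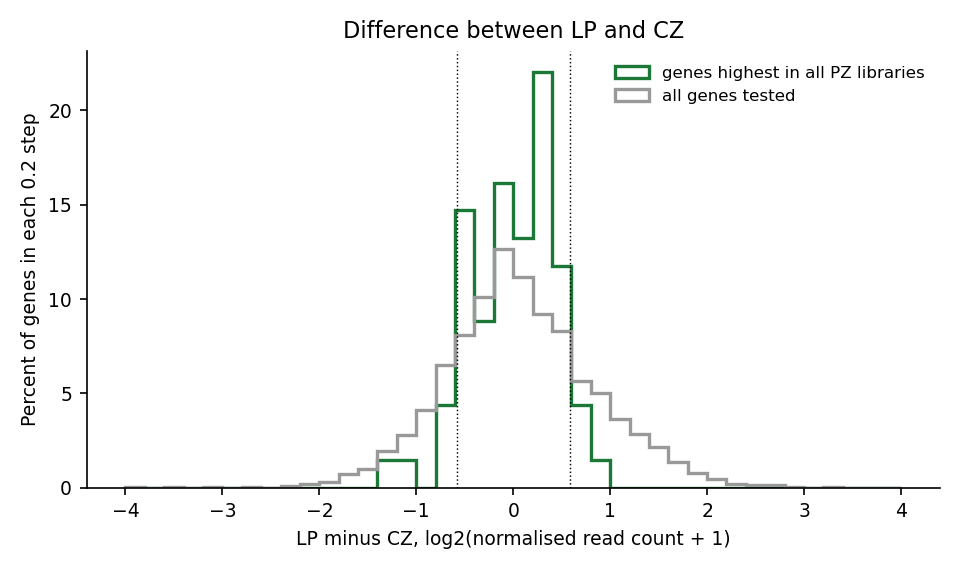
Percent of genes in steps of 0.2 of the LP minus CZ difference in log2(normalized count + 1), for the 68 genes highest in PZ and for all 4044 genes; dotted lines mark 1.5-fold. Between the dotted lines lie 86.8% of the 68 genes and 58.8% of all genes, under a rule that holds both zones below the PZ.

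Higher in LP than in CZ by at least 1.5-fold on this scale were 4 of the 68 genes (5.9%, beside 22.9% of all genes), and lower by as much 5 (7.4%, beside 18.3%). The LP and CZ libraries did not overlap in 3 genes with LP higher (8.95% of all genes did so) and in 2 with LP lower (6.58% of all genes).

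Among those with LP higher was Solyc05g053070.2, described above, at 29.8 ± 6.49 in LP and 18.7 ± 1.22 in CZ (SD, n = 3 each), with a log2 difference of 0.62 (standard error 0.34). It was the largest in reads, and its adjusted p from limma was 0.577. The most positive differences were found for weaker genes. Solyc07g026620.2 had 5.4, 4.44 and 6.21 in PZ, 1.73, 4.22 and 3.28 in LP and 2.60, 0.67 and 0.85 in CZ, and LP minus CZ was 0.82 (standard error 0.71). Solyc01g049680.2 was at 3.85, 4.44 and 7.59 in PZ, at 1.73, 3.02 and 2.18 in LP and at 1.15, 0.67 and 0.85 in CZ, a difference of 0.80 (standard error 0.75). The LP and CZ libraries overlapped in the first of these genes and not in the second. Solyc07g041980.2 followed with 1.54, 8.88 and 1.38 in PZ, 0.86, 0.60 and 1.09 in LP and 0.58, 0 and 0 in CZ, which is 4 reads in LP and 2 in CZ.

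The most negative difference was that of Solyc03g111390.2 (chromosome 3, 61976257 to 61986428). It had 4.63, 6.66 and 8.28 in PZ, 1.3, 0 and 1.09 in LP and 3.46, 2.00 and 3.40 in CZ, and LP minus CZ was -1.20, with a standard error of 0.72 and, by limma, an adjusted p of 0.641. All CZ libraries lay above all LP libraries. In Solyc01g106740.2, with 2.31, 6.66 and 4.14 in PZ, 0.43, 0 and 0 in LP and 1.15, 1.33 and 1.70 in CZ, the difference was -1.08 (standard error 0.86) on a single LP read. Solyc07g016170.2 had 4.63, 6.66 and 6.21 in PZ, 2.59, 1.81 and 0 in LP and 4.04, 2.67 and 1.70 in CZ, with overlapping LP and CZ libraries and a difference of -0.77 (standard error 0.71).

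In the contrasts that chose the genes, limma called 2 of the 68 as higher in PZ than in CZ (0.223% of all genes were called higher) and 1 as higher in PZ than in LP (0.0247% of all genes). The genes were chosen on these same values, so the calls are conditioned on that choice and are no test of the group. Both contrasts share the PZ libraries. The 2 genes were Solyc01g104400.2, with a log2 difference of 2.05 from CZ and 1.56 from LP, and Solyc03g111170.2, with 3.17 from CZ and 3.25 from LP. That gene has 152 of its 161 PZ reads in PZ1. The count for PZ against CZ was 0 without PZ2 or without CZ1 and 1 without PZ1 or without CZ2, and that for PZ against LP was 0 without PZ1 or without any 1 of the LP libraries. Without LP1 no gene of the whole table was called between PZ and LP. Over the 68 genes the median log2 difference was 1.08 from CZ and 1.12 from LP, next to 0.08 and 0.04 for all genes.

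The number of genes depended on how the libraries were scaled. By the same rule and with the same genes left out, 84 genes were highest in all LP libraries (2.08%) and 55 in all CZ libraries (1.36%). With the listed genes included, the numbers were 113 for LP and 57 for CZ, while that for PZ stayed at 68. The exclusion thus lowered mainly the count for LP. When each library was brought to the same total, 52 genes were highest in all PZ libraries, 90 in all LP libraries and 80 in all CZ libraries. With TMM factors, which balance the libraries by the bulk of their genes, the numbers were 20 for PZ, 84 for LP and 132 for CZ, where 1 gene in 84 gives about 46.7. Relative to the deposited scaling, TMM multiplied values by 0.932, 0.898 and 0.909 in PZ. The factors were 1.176, 0.899 and 0.932 in LP and 1.271, 0.995 and 1.028 in CZ, so the deepest libraries, CZ1 and LP1, rose most. The part of single libraries in the change was not tested. The 20 were all among the 68, and 19 of the 68 met the rule in all of these scalings. They included Solyc03g119130.2, Solyc01g104400.2, Solyc05g053940.2, Solyc09g082320.2, Solyc04g076220.2, Solyc01g109910.2, Solyc08g081100.2 and Solyc03g111170.2, while Solyc04g054140.2 and Solyc05g053070.2 did not meet it with TMM factors.

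**Figure D5:**
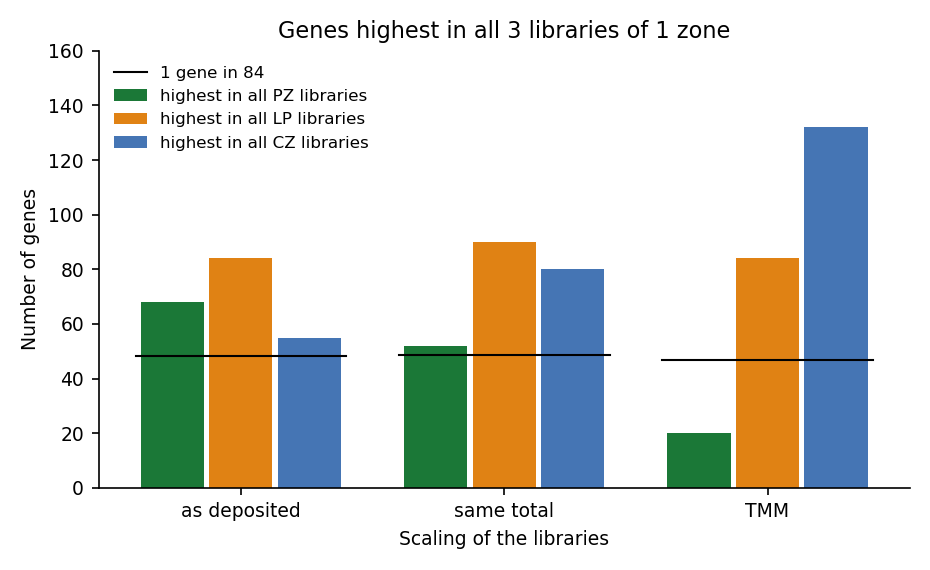
Number of genes highest in all 3 libraries of PZ, LP or CZ, with the study's listed genes left out. The libraries were scaled as deposited, to the same total, or by TMM, and the black line is the number given by 1 gene in 84. The PZ bar stands at 68, 52 and 20, and so lies above the line in the first scaling and below it in the last.

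Features that took no part in the choice were the place and the size of the genes. The group was spread over all 12 chromosomes, with 14 genes on chromosome 1, 10 on chromosome 3, 9 on chromosome 6 and 7 on chromosome 5, or 2.42%, 2.31%, 2.14% and 2.60% of the genes tested there. Chromosomes 8, 9, 10 and 11 held 2, 2, 1 and 2 genes, 0.418% to 0.873% of those tested. No gene of the group was next to another among the tested genes. The closest were Solyc06g071140.2 (chromosome 6, 43730471 to 43737761) and Solyc06g071210.2 (chromosome 6, 43805964 to 43810246), 68.2 kb apart. Solyc06g071140.2 had 6.17, 5.92 and 7.59 in PZ, 2.59, 3.02 and 0 in LP and 0.87, 4.67 and 4.25 in CZ, and Solyc06g071210.2 had 3.85, 8.14 and 3.45 in PZ, 2.16, 1.81 and 1.09 in LP and 3.17, 1.33 and 0.85 in CZ. They differed in the leading PZ library, PZ3 in one and PZ2 in the other.

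The genes were long. Their span on the genome, introns included, had a median of 5948 bp, beside 4148 bp for all 4044 genes, 2876 bp for genes highest in all LP libraries and 3338 bp for those highest in all CZ libraries. Spans over 10 kb were found in 18 of the 68 genes (26.5%, beside 10.5% of all genes), the longest being the 54487 bp of Solyc05g017890.2, and spans under 2 kb in 7 (10.3%, beside 18.1%). Among genes with a mean level of 2.86 to 6.30, the middle range of the group, the median was 7363 bp for 34 of the 68 genes and 4740 bp for all 1852 genes. With TMM factors it was 5184 bp for the 20 genes and 4080 bp for all. These are descriptions, since genes of a group are no replicates.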

How the data were processed

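The values analysed are a signal deposited by the authors, normalized counts of 34866 tomato genes in 9 libraries, in which each value is the reads of a gene divided by a factor of the library. According to the study's methods, 36-base inserts were aligned with Bowtie2 2.1.0 to the genome SL2.50 and the plastid genome, counted per gene with a script based on HTSeq and analysed with DESeq2 1.4.0. The reads carried molecular identifiers; how the factor was made, and whether reads sharing an identifier were collapsed before counting, is not given in the sources used here. All values above 0 were whole multiples of a step per library (100% within a tolerance of 0.0051), from which reads were recovered.

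The genes were selected by the rule in a script, and they, the markers and the choice of named genes were chosen with earlier results of these data known. Every gene of the group is named. Values in every library were given for those called in a PZ contrast, the 10 widest gaps, the 5 highest PZ means, the described genes, the 3 most positive and 3 most negative LP minus CZ differences, neighbours within 100 kb and the 3 genes on either side of the limit (outside it, those with reads in every PZ library). Zones were compared on log2(normalized count + 1) by limma 3.58.1 (R 4.3.3), with a trend of the variance and Benjamini-Hochberg adjustment over 4044 genes. A p-value here sets the difference between zones against the spread of libraries within zones. In the main fit that spread was estimated over all zones with a trend over all genes, and part of it may be technical. The study describes the 3 libraries of a zone as biological replicates, though the plants behind each are not given. Alternatives were pseudocounts of 0.5 and 2, other minimums, other scalings, count tests of the recovered reads (DESeq2 1.42.0, edgeR 4.0.16), a replicate block, only the zones compared, and leaving out each library. Gene sequences were not used here.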

Additional observations from a re-analysis of the deposited data

How the results depend on the processing

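The number of genes highest in all PZ libraries was 20 with TMM scaling, 165 with a minimum of 3 in 1 library, 39 with a minimum of 6 for a zone mean, 297 with no minimum, and 2 when the lowest PZ value had to be at least 1.5 times the highest other. Leaving out a library, which loosens the rule, gave 92 to 195 genes. The same total for each library gave 52, of which 49 were among the 68. TMM scaling moved the median log2 difference of all genes between PZ and CZ to -0.12, beside 0.08 as deposited.

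Between LP and CZ, 0 of the group were called in any alternative (9 to 74 of all genes were), and the median difference stayed within -0.04 and 0.04, or -0.09 and 0.14 with a library left out. The lack of calls was largely set by the choice of genes, as given above. For PZ against CZ, 2 of the group stood among 13 genes called in either direction, 9 of them higher in PZ. The number was 1 among 10 with a pseudocount of 0.5, 1 among 7 with no filter and 1 among 2 with DESeq2. It was 0 among 2 with the filter on zone means and 0 among 7 with TMM scaling. It stayed at 2 with edgeR, among 29 called genes, and with a replicate block, among 20. With only the 2 zones compared, 0 genes of the whole table were called. For PZ against LP, 1 of the group stood among 6 genes called in either direction, and only 1 gene of the whole table was called higher in PZ. The number was 0 among 4 with a pseudocount of 0.5 and 0 among 5 with TMM scaling. It stayed at 1 with edgeR, among 25 called genes, and with a replicate block, among 11. With the filter on zone means, DESeq2 or only the 2 zones compared, 0 genes of the whole table were called. DESeq2 gave no adjusted p for Solyc03g111170.2. Leaving out a library gave 0 to 2 for PZ against CZ and 0 to 1 for PZ against LP. With the filter on zone means, 1913 genes were tested, Solyc01g104400.2 and Solyc03g111170.2 among them. Their adjusted p from limma for PZ against CZ was 0.0532 and 0.436 there, beside 0.00348 and 0.0329 in the main fit. Why the calls changed was not tested for any setting.

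A replicate block left all of these numbers at 2, 1 and 0, with a median of 0.03. By their labels, same-numbered libraries share only a number. The study shows all zones outlined on a typical section, so same-numbered libraries may come from the same apices, which is not given. Deviations of same-numbered libraries correlated at 0.027 to 0.112, over 0.1 in 2 of 9 pairs. In 17 of 18 cases a library correlated best with its own number in another zone. This is a hint from the data and not the design, and the main fit left it out. At 40286 to 144665 reads per library, differences of a few reads in genes at this level may have gone undetected, and no detection limit was computed.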

Other observations

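The rule can be turned round. Lowest in all libraries of a zone were 35 genes for PZ, 61 for LP and 80 for CZ, of 4044 and with the study's listed genes left out, where 1 gene in 84 gives 48.1. No explanation was tested.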
